A study of Mus musculus with 3 samples.

Results

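The comparison described here sets a microarray labelled high glucose with Ninj1 siRNA against another labelled high glucose, in primary endothelial cells grown from the erectile tissue (the corpus cavernosum) of C57BL/6 mice. Probes entered where the scanner software marked them well above background on both arrays and where the processed signal, a background-subtracted brightness on a linear scale, was above 500 on at least 1 of the 2. This kept 15268 of 39429 probes and 9994 of 19751 named genes. The rule set no minimum for the difference between the arrays. A gene above 500 on 1 array alone still had to differ to some degree, as counted below.

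The study measured RNA on 3 single-colour mouse expression arrays. Cells of all groups were kept in M199 medium with 20% heat-inactivated serum, heparin and VEGF-A. The normal-glucose label stands for 5 mmol glucose, the high-glucose label for 30 mmol, and the siRNA label for 30 mmol glucose following transfection with 200 pmol of Ninj1 siRNA using Lipofectamine 2000, each after 48 h. Each array carries RNA pooled from 3 numbered samples, so there is 1 array per group, no spread between replicates and no test. The labels do not state whether cells outside the siRNA group received a control siRNA or the transfection reagent, and they do not give the age of the mice. In this text "higher" and "lower" describe these arrays only.

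Ninj1 encodes a small membrane protein known for cell adhesion after nerve injury and for the rupture of the plasma membrane of dying cells. An siRNA acts by guiding the degradation of its target's messenger RNA. Endothelial cells of the corpus cavernosum line its blood spaces and signal to the smooth muscle that controls erection, and when taken into culture such cells can divide, answer vasoactive hormones and control clotting at their surface.

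Ninj1 itself went against the labels. Its signal was 20413 for the normal-glucose label, 16291 for high glucose and 25539 for siRNA, which is 1.34-fold higher for siRNA than for high glucose after scaling (log2 difference 0.42, from 0.30 to 0.44 over the alternative settings). The names of the deposited files carry words that swap the 2 high-glucose arrays, and for 2 of 3 arrays the position given in the name is not the one stored in the file. With the 2 arrays exchanged, each difference below keeps its size and takes the opposite sign. The arrays are therefore called by their labels throughout.

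Endothelial identity rested on few genes. Of 18 endothelial markers, 11 were well above background on both arrays and 4 were above 500, the brightest being Kdr, the main VEGF receptor, with signals of 7440, 7298 and 8278 under the labels for normal glucose, high glucose and siRNA. Tie1, Erg, Emcn and Sox18 were not well above background on any array, and Pecam1 gave 61.9, 76.5 and 72.4. Under the siRNA label 2 endothelial markers were higher by 2-fold or more, Cdh5 (166, 185 and 618) and Esam (112, 126 and 327), and 2 were lower, Vwf (63.3, 66.2 and 32.3) and Robo4 (42.2, 52.1 and 28.7). All 14 fibroblast markers were measured, 13 of them above 500. Their summed signal was 1010609, 992809 and 798872, and under the siRNA label 6 were lower by 2-fold or more and none was higher by that much. Of 9 measured markers of smooth muscle and pericytes, 5 were at least 2-fold lower and 1 higher. Of 8 measured macrophage markers 3 were at least 2-fold lower, among them Adgre1 (860, 917 and 257) and Lyz2 (1696, 1641 and 465). The median log2 difference of these 8 was -0.23, with Csf1r at 0.11 and Mrc1 at 0.01. In RNA from mixed cells, fewer cells of a type and less RNA per cell cannot be told apart. What these markers contribute to the differences below was not tested.

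Signals are given in the order normal-glucose label, high-glucose label, siRNA label, and are not scaled. Fold and log2 differences compare the siRNA label with the high-glucose label after each array's 75th percentile was subtracted on the log2 scale. Of the 9994 genes, 587 (5.87%) lay higher by 2-fold or more and 601 (6.01%) lower, with a median log2 difference of 0.05 and an SD of 0.72. For high glucose against normal glucose by label, the same genes had an SD of 0.09, and 1 of 9993 (0.01%) was past 2-fold. The siRNA-labelled array thus stood apart from both others, and most genes below had near-equal signals on the other 2. Repeated spots of a probe gave a typical difference of 0.08 (log2), which covers spot noise only. Of 158 genes past 2-fold with a second probe that entered, 157 had that probe on the same side of 0 and 127 had it past 2-fold as well. Close to the signal limit, 14.7% of 666 probes with a brighter signal of 500 to 600 were past 2-fold, against 18.7% of 828 probes just outside it at 400 to 500. A gene that reached the limit on 1 array only had to differ to some degree: 530 genes entered through the siRNA-labelled array alone and 266 through the other alone. Of the 9198 genes above 500 on both, 3.99% were at least 2-fold higher and 4.66% lower.

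**Figure D1:**
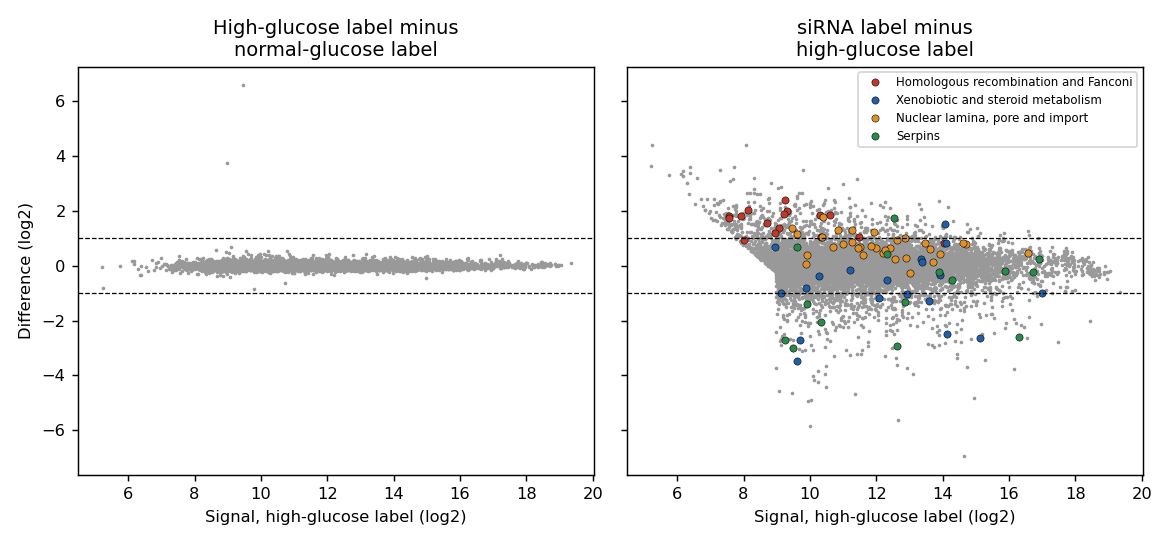
Log2 difference between arrays against the unscaled log2 signal of the high-glucose-labelled array for 9994 genes (grey points), with 4 lists in colour on the right and dashed lines at 2-fold. The left panel holds nearly all genes near 0, except Slc18a1 and Olfr95 at the top, and the right panel spreads with an SD of 0.72; its empty lower left corner is set by the signal limit of 500.

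Of the functions examined as lists, repair of broken DNA by homologous recombination and the Fanconi pathway lay highest. It had a median log2 difference of 1.77, against 0.05 for all genes compared. In all 16 of its 29 genes that were compared the difference was above 0, and 14 were at least 2-fold higher, beside 5.87% of all genes. Of these 16, 7 reached the signal limit on the siRNA-labelled array alone, and of the 9 that were above it on both arrays 8 were at least 2-fold higher. The other 13 genes of the list were not compared. Exo1, a nuclease that trims broken ends, had signals of 600, 604 and 3700 and was 5.24-fold higher. Fanca, of the Fanconi core complex, had 622, 629 and 2960 and was 4.02-fold higher. Bard1, the partner of BRCA1, had 675, 602 and 2602 and was 3.69-fold higher. The first 2 arrays were close for each of these genes and the siRNA-labelled array was the high one. Brca2, which acts in strand exchange, was 2.59-fold higher and the helicase Blm 4.10-fold. The smallest difference of the list was that of Rpa1, 1.78-fold.

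Promoters of Bard1 and Brca2 are shown because they are the 2 promoters of this list that hold TTTCCCGC, a motif of the E2F type, printed in capitals (as GCGGGAAA where it lies on the other strand). The sequences are RefSeq's, build GRCm38.p6, from 250 bases before to 50 after the start, 5′ to 3′ along the gene: Bard1 at chr1:71102923-71103222 on the minus strand and Brca2 at chr5:150522371-150522670 on the plus strand.
Bard1: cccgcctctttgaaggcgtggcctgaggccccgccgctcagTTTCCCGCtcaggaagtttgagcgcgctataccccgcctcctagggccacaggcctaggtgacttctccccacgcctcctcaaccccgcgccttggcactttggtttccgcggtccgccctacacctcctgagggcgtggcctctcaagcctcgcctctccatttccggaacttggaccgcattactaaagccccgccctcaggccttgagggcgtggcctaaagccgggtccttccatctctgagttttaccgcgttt
Brca2: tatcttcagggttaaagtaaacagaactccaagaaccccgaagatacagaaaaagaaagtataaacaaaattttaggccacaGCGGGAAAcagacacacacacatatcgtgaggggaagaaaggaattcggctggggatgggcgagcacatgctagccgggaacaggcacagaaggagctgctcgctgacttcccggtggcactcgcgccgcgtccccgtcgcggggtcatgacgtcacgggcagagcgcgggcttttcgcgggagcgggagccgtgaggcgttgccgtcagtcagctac
Both strands were searched. The motif lay in 2 of 13 promoters of the repair list. It lay in 3.89% of 566 promoters of genes at least 2-fold higher, in 0.90% of 556 promoters of genes at least 2-fold lower, in 1.97% of all promoters of genes compared and in 1.07% of all 32851 in the table. CCAAT, a shorter motif, lay in 10 of 13 promoters of the repair list, against 47.9% for the higher genes, 36.3% for the lower and 37.4% of all promoters. The promoters printed for Bard1 and Brca2 do not hold CCAAT. A match describes the letters only.

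Chromatin assembly and gene silencing factors were also higher. Of 29 genes of DNA methylation and polycomb, 11 were at least 2-fold higher and none lower, with a median of 0.52, and of the 26 above the signal limit on both arrays 9 were higher. Chaf1b, a subunit of the complex that places histones on new DNA, had 2387, 2309 and 14921 and was 5.52-fold higher. Asf1b, a histone chaperone, had 1035, 1053 and 6369 and was 5.17-fold higher. Ezh2, the methyltransferase of polycomb, had 796, 746 and 3055 and was 3.50-fold higher. The high array was again the one labelled siRNA. The helicase Hells was 3.83-fold and Uhrf1, which guides maintenance of DNA methylation, 3.36-fold higher, while the related Ezh1 and Dnmt3a had log2 differences of -0.78 and -0.62, short of 2-fold. Mismatch, base and nucleotide excision repair held fewer such genes: 4 of 24 were at least 2-fold higher and none lower (median 0.30), or 2 of the 20 above the limit on both arrays, led by the glycosylase Neil3 at 2.86-fold. Timeless, listed with the clock but known for guarding replication forks, was 2.71-fold higher, and the other 13 of 14 clock genes compared were within 2-fold.

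The nuclear envelope and its traffic lay on the same side. Of 32 genes of the lamina, pore and import machinery 31 had a difference above 0, and 8 were at least 2-fold higher (median 0.68). Ndc1, which anchors the pore in the membrane, had 1278, 1333 and 5299 and was 3.40-fold higher. The lamin gene Lmnb1 had 723, 707 and 2120 and was 2.56-fold higher. Rcc1, which charges RAN with GTP in the nucleus, was 2.45-fold higher and Nup43 2.44-fold. The export receptor Xpo1 was 2.36-fold higher by its brightest probe and below 2-fold as a mean over its probes (log2 0.95).

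Enzymes that supply DNA precursors were higher as well. Of 20 genes of purine and pyrimidine synthesis 5 were at least 2-fold higher and none lower (median 0.70), and of the 17 above the signal limit on both arrays 3 were higher. The salvage kinase Tk1 had 2419, 2374 and 9819 and was 3.53-fold higher, and Dck, which salvages deoxycytidine, was 3.22-fold higher. Of 16 genes of serine, folate and methionine metabolism 5 were at least 2-fold higher and 1 lower (median 0.65), or 3 and 1 of the 14 above the limit on both arrays. Shmt1, the cytosolic enzyme that passes a carbon from serine to folate, had 100, 93.8 and 517 and was 4.71-fold higher. Its opposite was Aldh1l1, which oxidises formyl groups carried by folate, with 5235, 5229 and 2146 and 2.85-fold lower, while the mitochondrial relative Aldh1l2 was 2.20-fold higher.

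Machinery for making RNA and protein showed small shifts over many genes. In ribosome biogenesis 22 of 23 genes had a difference above 0 and 2 of them, Ncl and Nop56, reached 2-fold (median 0.52), but both were short of it as a mean over probes (log2 0.97 and 0.72). In the mitochondrial ribosome and import list 24 of 25 were above 0 and 3 were at least 2-fold higher (median 0.40), led by Timm8a1 at 2.47-fold. None of 19 aminoacyl-tRNA synthetases was past 2-fold (median 0.39), and 4 of 33 splicing factors were higher (median 0.33), led by Hnrnpa1 at 2.61-fold and Srsf2 at 2.40-fold; the other two, Srsf3 and Srsf7, were short of 2-fold as a mean over probes or under another scaling (lowest log2 0.65 and 0.86). The proteasome, with 0 of 22 genes past 2-fold and a median of 0.17, and autophagy, with 0 of 15 and 0.14, lay close to all genes.

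**Figure D2:**
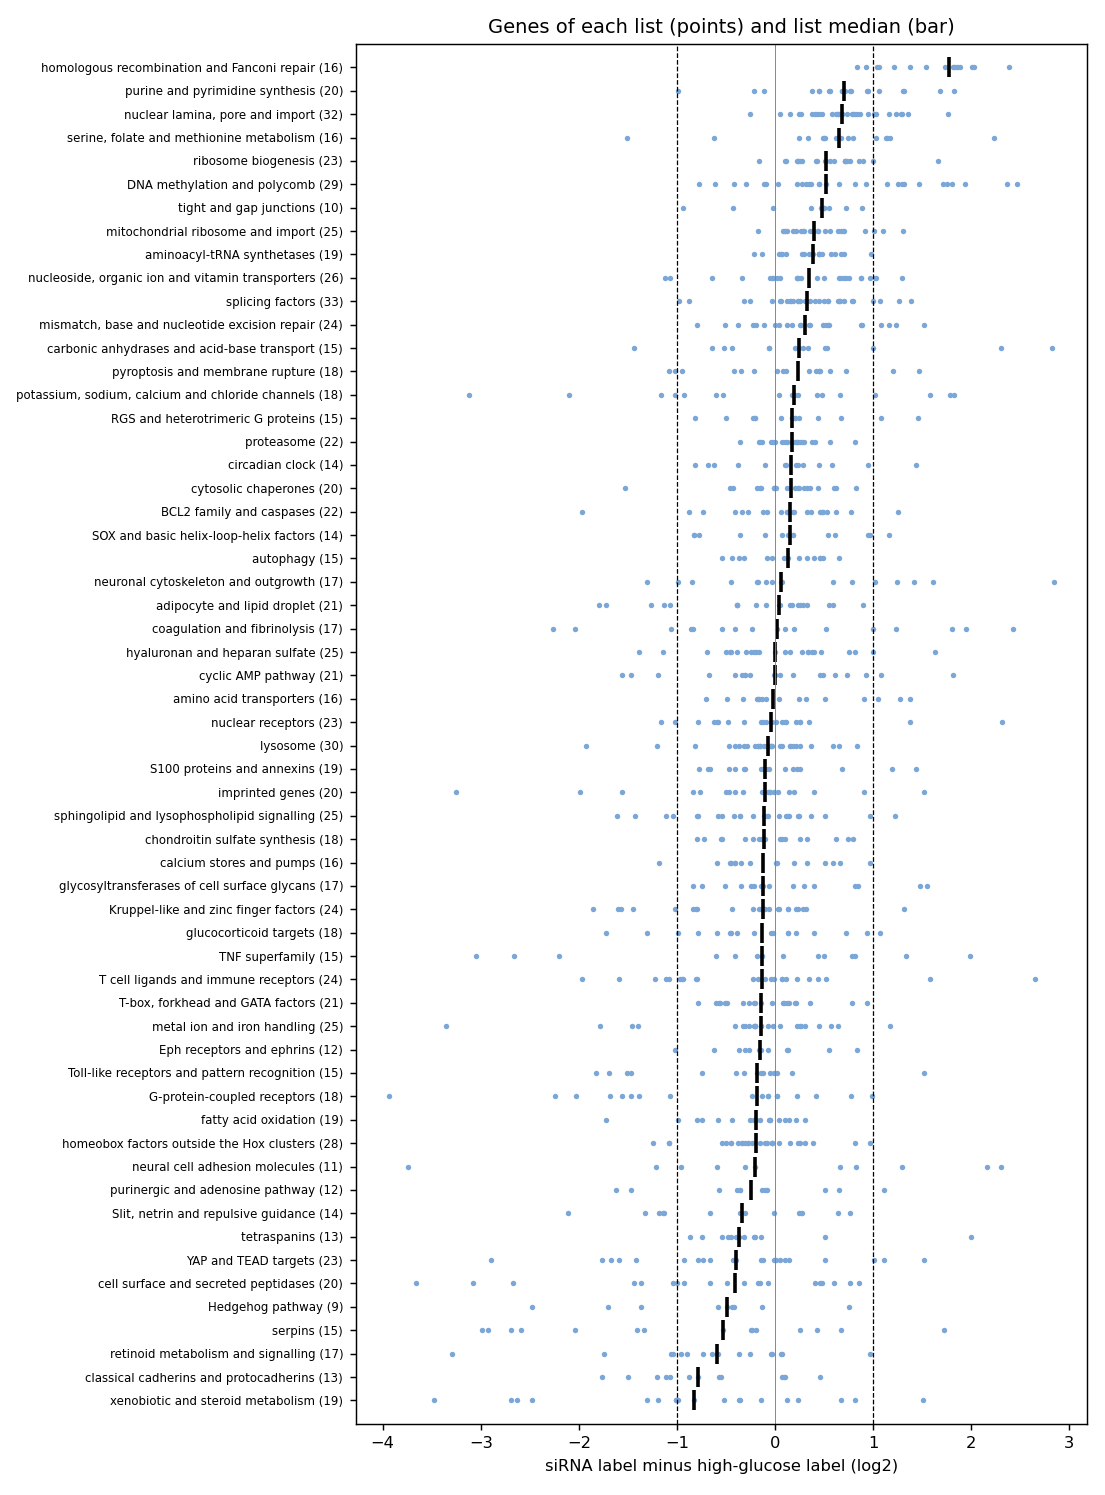
Log2 difference of the siRNA-labelled from the high-glucose-labelled array for each gene (points) of 58 of the 59 lists, with the list median as a bar, the number of genes compared in brackets and dashed lines at 2-fold. Medians run from -0.83 for xenobiotic and steroid metabolism to 1.77 for homologous recombination and Fanconi repair, and most lie within 0.5 of 0.

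At the other end, by the median over all genes compared in a list, stood enzymes that metabolise foreign compounds and steroids. Of 19 genes compared 8 were at least 2-fold lower and 1 higher (median -0.83), beside 6.01% lower among all genes. Of the 15 that were above the signal limit on both arrays, 5 were lower and 1 higher. The median of those 15 was -0.52, and by that measure retinoid metabolism (-0.69) and the cadherins (-0.68) lay lower. Over the alternative settings the median of the whole list ran from -0.83 to -0.44. Cyp2f2, a cytochrome P450 that oxidises small aromatic compounds, had 38129, 35808 and 6753 and was 6.21-fold lower. Cyp7b1, which hydroxylates oxysterols, had 17343, 17845 and 3750 and was 5.57-fold lower. Fmo1, a flavin-containing monooxygenase, had 848, 841 and 152 and was 6.47-fold lower. In these genes the siRNA-labelled array was the low one. The aldehyde oxidase Aox3 was 11.1-fold lower and its neighbour Aox1 lower by a log2 difference of -1.19; probes of such close relatives may share signal. Hsd11b1, which regenerates active glucocorticoid, was 2.47-fold lower. Akr1c18, which inactivates progesterone, was the exception at 2.84-fold higher.

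Retinoid metabolism lay on the low side too, with 4 of 17 genes at least 2-fold lower and none higher (median -0.59); these 4 were above the signal limit on both arrays. Aldh1a1, which makes retinoic acid, had 5561, 4929 and 590 and was 9.78-fold lower. Its close relative Aldh1a7 had 1309, 1120 and 73.6, the lowest of all genes the naming rule takes at 17.8-fold lower, and may share signal with it. A pair of genes known to respond to retinoic acid, Tgm2 and Rarres1, were 3.34-fold and 2.05-fold lower. Adh1, an alcohol dehydrogenase that can oxidise retinol, was 4.42-fold lower; it was chosen after its values were seen. The receptor genes Rara and Rarg had differences of -0.04 and -0.03.

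The G-protein-coupled receptors of the list, several of them vasoactive, were lower where they passed 2-fold. Of 44 G-protein-coupled receptors listed 18 were compared, of which 8 were lower by 2-fold or more and none higher (median -0.19). Of the 15 above the signal limit on both arrays 6 were lower. Npy1r, the receptor through which neuropeptide Y constricts vessels, had 8721, 8886 and 680 and was 15.3-fold lower. Agtr1a, the constrictor receptor for angiotensin II, had 577, 554 and 137 and was 4.74-fold lower. Agtr2, the second angiotensin receptor, had 2472, 2263 and 651 and was 4.07-fold lower. All 3 were near-equal on the first 2 arrays. The adrenergic receptor Adra2a was 2.77-fold lower, the vasopressin receptor Avpr1a 2.61-fold and the endothelin receptor Ednra 2.10-fold, whereas Adra1b and F2r had a difference of 0.02 each. Tbxa2r, the thromboxane receptor, which was outside the list and was chosen after its values were seen, had 634, 577 and 115 and was 5.90-fold lower. Cnr1, a cannabinoid receptor also outside the list and named by its rank, was 8.45-fold higher. Smooth muscle also carries several of the lower receptors, and 5 of its 9 measured markers were at least 2-fold lower, as given above. The part of smooth muscle in the result was not tested.

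Of 20 cell surface and secreted peptidases 6 were at least 2-fold lower and none higher (median -0.41), and of the 16 above the signal limit on both arrays 2 were lower. Mme (neprilysin), which degrades natriuretic peptides, had 1335, 1431 and 133 and was 12.6-fold lower. Ace, which makes angiotensin II, had 2834, 2879 and 1240 and was 2.72-fold lower. The serine protease gene Prss23 was 8.43-fold and the carboxypeptidase Cpz 6.37-fold lower. Genes of 2 further peptide systems were chosen after their values were seen or by rank: Kng1, the precursor of bradykinin, had 16447, 17252 and 4535 and was 4.45-fold lower, though probes of its close copy Kng2 may share signal. Nppc, which encodes C-type natriuretic peptide, an endothelial relaxing factor, had 113, 96.7 and 1048 and was 9.26-fold higher, and its clearance receptor Npr3 had 176, 183 and 916 and was 4.27-fold higher.

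**Figure D3:**
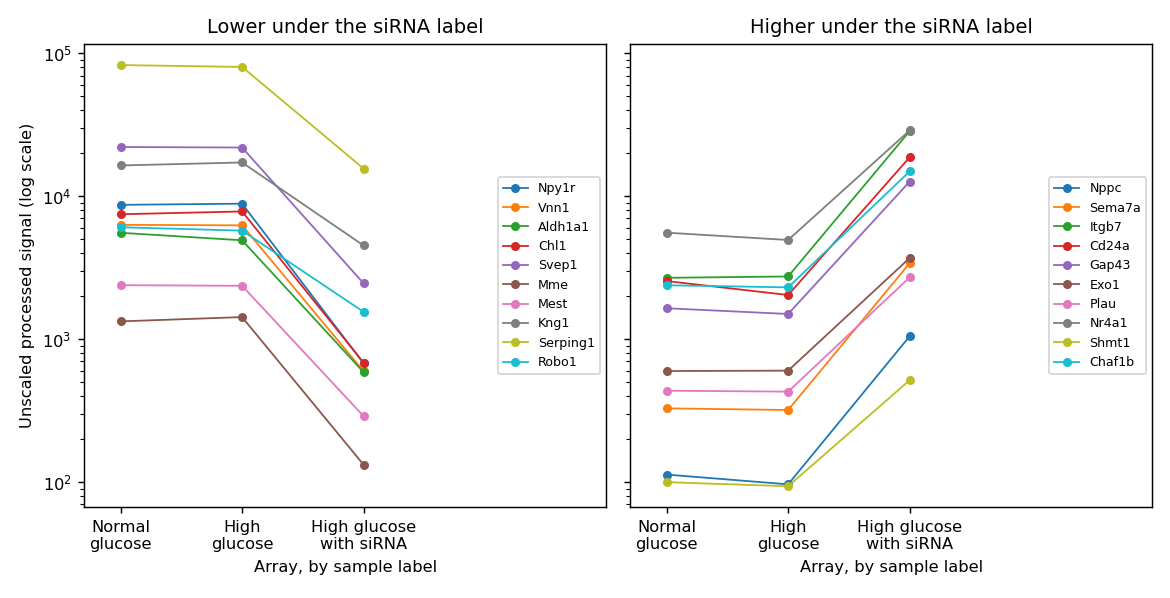
Unscaled processed signal (log axis) on the 3 arrays, named by their labels, for 10 lower and 10 higher genes, each array being 1 pooled sample. Lines are flat between the first 2 arrays and part at the siRNA-labelled array, as for Npy1r (8886 to 680) and Itgb7 (2752 to 28532).

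Intracellular relays of such receptors were mixed. In the cyclic AMP pathway 2 of 21 genes were at least 2-fold higher and 3 lower. The median was 0.00, with a sign that changes with the scaling and the signal limit. The transcriptional repressor Crem had 1443, 1197 and 4926 and was 3.52-fold higher, and the cyclic AMP sensor Rapgef3 was 2.78-fold lower. Of 15 RGS and heterotrimeric G protein genes 2 were higher (median 0.18), Rgs16 at 2.74-fold and Rgs2 at 2.11-fold, the latter under 2-fold with cyclic loess (log2 0.95) and as a mean over probes (0.99). Of 12 purinergic and adenosine genes, P2ry6 and P2rx5 were 3.07-fold and 2.77-fold lower and Nt5e, the ectoenzyme that makes adenosine from AMP, was 2.16-fold higher. Both lower genes reached the signal limit on the high-glucose-labelled array alone. Of the 10 genes above it on both arrays 1 was higher and none lower.

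Ion channels went both ways, 4 of 18 compared at least 2-fold higher and 4 lower (median 0.19). Of these, 5 reached the signal limit through the siRNA-labelled array alone, and of the 12 above it on both arrays 1 was higher and 3 lower (median -0.18). Cacna1g, a T-type calcium channel, had 831, 871 and 117 and was 8.68-fold lower, and the potassium channel subunit Kcnab1 was 4.29-fold lower. Ano1, a calcium-activated chloride channel, had 231, 187 and 756 and was 3.44-fold higher. Kcnn4, the calcium-activated potassium channel of endothelium that takes part in vessel relaxation, had 359, 331 and 1160 and was 3.00-fold higher. Kcnk10, a background potassium channel outside the list and named by its rank, had 435, 451 and 4256 and was 8.06-fold higher. Of 16 genes of calcium stores and pumps 1, Rcn3, was past 2-fold (2.27-fold lower).

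The plasminogen system split by enzyme. Plau, the urokinase that turns plasminogen into plasmin at cell surfaces, had 437, 431 and 2711 and was 5.38-fold higher. Plaur, its receptor, had 5203, 4939 and 20260 and was 3.50-fold higher. Plat, the tissue activator that endothelium releases into blood, had 2798, 2564 and 731 and was 4.10-fold lower. Thus 1 activator and its receptor were highest on the siRNA-labelled array and the other activator lowest there. Plaur and Plat were above the signal limit on both arrays compared, but Plau reached it on the siRNA-labelled array alone. Serpinb2, an inhibitor of urokinase, had 5086, 5911 and 22811 and was 3.30-fold higher. Within the coagulation list as a whole 4 of 17 genes were at least 2-fold higher and 3 lower. The median was 0.02, with a sign that changes with the scaling and the signal limit. Of the 15 genes above that limit on both arrays 3 were higher and 3 lower (median -0.24). The anticoagulant receptor Thbd was 2.34-fold higher, the initiator of clotting F3 2.08-fold lower and the cofactor F5 3.87-fold higher. Gas6, a vitamin K-dependent ligand of TAM receptors, had 58468, 60275 and 14693 and was 4.80-fold lower.

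Of the serpins, a family of mostly protease inhibitors, 7 of 15 were at least 2-fold lower and 1 higher (median -0.53), and of the 11 above the signal limit on both arrays 3 were lower and 1 higher. Serping1, the inhibitor of complement C1 and kallikrein, had 82877, 80403 and 15655 and was 6.01-fold lower, with a second probe at -2.73 (log2). Serpina3n had 5763, 6277 and 969 and was 7.58-fold lower. Its neighbours Serpina3f and Serpina3m were 7.94-fold and 6.47-fold lower, but these genes are near copies and cannot be counted as separate observations. Beside the serpins, the complement genes Cfb and C4b were 12.9-fold and 6.32-fold lower.

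**Figure D4:**
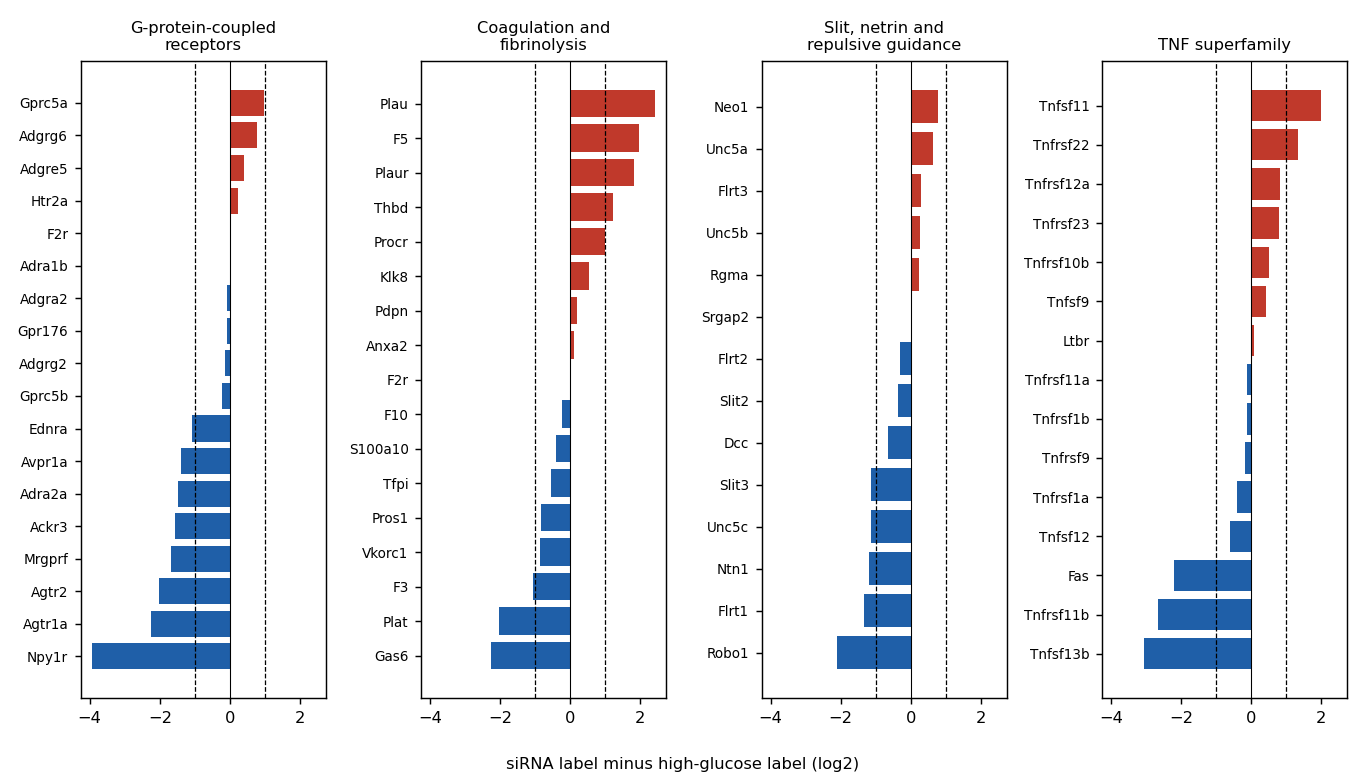
Log2 difference of the siRNA-labelled from the high-glucose-labelled array for each compared gene of 4 lists, with dashed lines at 2-fold, red for higher and blue for lower under the siRNA label. Npy1r reaches -3.93 among the receptors, Plau 2.43 and Gas6 -2.26 bound the coagulation list, Robo1 lies at -2.11 among the guidance genes, and Tnfsf13b and Tnfsf11 at -3.05 and 1.99 among the TNF genes.

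Guidance and cell contact genes, first described in nerve and shared by vessels, were read next, and their lists did not share a direction. Of 14 Slit, netrin and repulsive guidance genes 5 were at least 2-fold lower and none higher (median -0.33). Robo1, a Slit receptor, had 6078, 5758 and 1557 and was 4.33-fold lower, its ligand Slit3 was 2.19-fold lower, Ntn1 (netrin 1) 2.28-fold and the netrin receptor Unc5c 2.21-fold. Neural adhesion molecules split. Chl1 had 7495, 7839 and 687 and was 13.3-fold lower, while its relative Nrcam had 2413, 2362 and 12328 and was 4.46-fold higher. Slitrk6 and Alcam were 4.95-fold and 2.46-fold higher and Cntn1 2.32-fold lower, so that 3 of 11 were higher and 2 lower. Of 17 genes of the neuronal cytoskeleton and outgrowth 5 were higher and 1 lower (median 0.07). Gap43, a growth cone protein, had 1649, 1504 and 12660 and was 7.19-fold higher. Stmn1, which takes apart microtubules and is abundant in dividing cells, had 21928, 20241 and 72534 and was 3.06-fold higher, and the neuronal Stmn2 was 2.47-fold lower. Sema7a, a membrane-anchored semaphorin, had 329, 320 and 3400 and was 9.07-fold higher. Among Eph receptors and ephrins 1 of 12, Efnb1, was past 2-fold (2.02-fold lower).

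Classical cadherins and protocadherins had 5 of 13 genes at least 2-fold lower and none higher (median -0.79). Fat4 and Dchs1, which bind each other across cell contacts, were 3.39-fold and 2.30-fold lower, Pcdh9 2.83-fold lower and Cdh11, a cadherin of mesenchymal cells, 2.17-fold lower by its brightest probe and short of 2-fold as a mean over probes (log2 -0.97). Of the 12 genes above the signal limit on both arrays 4 were lower. The Hedgehog list had 3 of 9 at least 2-fold lower and none higher (median -0.49), and these were the 3 coreceptors that help cells to bind the ligand, of which Cdon and Boc stayed below the signal limit under the siRNA label. Cdon had 1065, 1235 and 259 and was 5.58-fold lower. Gas1 had 3314, 3325 and 1195 and was 3.26-fold lower. Boc had 1030, 997 and 454 and was 2.57-fold lower, whereas the transducer Smo had a difference of -0.13. Of 23 YAP and TEAD targets 5 were lower and 3 higher (median -0.40), with Ccn2 and Ccn1 7.46-fold and 3.00-fold lower and Amotl1 2.86-fold higher, and Ankrd1, another widely used target, at 0.14. Of 14 fibroblast markers 6 were at least 2-fold lower, as given above, while Fap, Pi16 and Thy1 had differences above 0 (log2 0.86, 0.29 and 0.10). The part of fibroblasts in the cadherins, the coreceptors and these targets was not tested.

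The TNF superfamily had 2 of 15 genes at least 2-fold higher and 3 lower (median -0.13), and of the 10 above the signal limit on both arrays 1 was lower. Tnfsf11 (RANKL), which drives osteoclast formation, had 417, 435 and 2015 and was 3.96-fold higher. Tnfrsf11b (osteoprotegerin), its decoy receptor, had 655, 676 and 125 and was 6.34-fold lower. Tnfsf13b (BAFF), a survival factor of B cells, had 794, 811 and 115 and was 8.28-fold lower. Tnfsf11 and its decoy thus stood on opposite sides. Of the 2 arrays compared, each of them reached the signal limit only on the one where it was brighter, as did Tnfsf13b. The death receptor Fas was 4.62-fold lower, and in the BCL2 and caspase list 1 of 22 genes was higher (Bok, 2.39-fold) and 1 lower (Casp12, 3.91-fold), each above the signal limit on 1 array alone. Since ninjurin 1 is known for membrane rupture, the 18 genes of pyroptosis and membrane rupture were read too: Ripk3 and Acsl4 were 2.30-fold and 2.77-fold higher, and Nlrp1a and Zbp1 2.11-fold and 2.03-fold lower, with Zbp1 at -0.65 (log2) as a mean over its probes.

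Of 15 genes of pattern recognition 4 were at least 2-fold lower and 1 higher (median -0.18). Tlr2 had 6873, 7105 and 2999 and was 2.77-fold lower, the cytosolic sensor Nod1 3.22-fold lower, the lipopolysaccharide carrier Lbp 3.55-fold lower and Ptx3 2.84-fold lower, whereas Cd14 had 5420, 4989 and 16711 and was 2.86-fold higher. Tlr4 differed by -0.14. Among 24 T cell ligands and immune receptors 2 were higher and 5 lower (median -0.14): Cd200, which restrains macrophages, had 256, 294 and 2165 and was 6.29-fold higher, and the shared cytokine receptor chain Il6st had 24523, 24492 and 7317 and was 3.92-fold lower. Lifr, the receptor that pairs with it for leukaemia inhibitory factor, was 5.17-fold lower and was chosen after its values were seen. Of 8 measured macrophage markers 3 were at least 2-fold lower, as given above, and the rest were within 2-fold. The part of macrophages in these genes was not tested.

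The promoters of Tgtp2, an interferon-induced GTPase gene with signals of 37149, 39932 and 4334 (10.8-fold lower, with near copies that may share signal), of Tnfsf13b and of Chl1 are shown because these genes were among the 30 lowest and hold a motif of the interferon response type, in capitals: TTTC, any 2 bases and TTTC again, read on the other strand in Tgtp2 and Tnfsf13b as GAAA, any 2 bases and GAAA. The sequences are RefSeq's, build GRCm38.p6, at chr11:49064163-49064462 on the minus strand, chr8:10006383-10006682 on the plus strand and chr6:103510626-103510925 on the plus strand, 5′ to 3′ along the gene.
Tgtp2: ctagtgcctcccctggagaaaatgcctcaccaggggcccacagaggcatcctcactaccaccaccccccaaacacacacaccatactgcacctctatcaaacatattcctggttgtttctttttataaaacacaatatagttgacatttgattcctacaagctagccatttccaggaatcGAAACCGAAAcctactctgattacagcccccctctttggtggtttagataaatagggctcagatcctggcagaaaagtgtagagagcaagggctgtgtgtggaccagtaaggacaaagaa
Tnfsf13b: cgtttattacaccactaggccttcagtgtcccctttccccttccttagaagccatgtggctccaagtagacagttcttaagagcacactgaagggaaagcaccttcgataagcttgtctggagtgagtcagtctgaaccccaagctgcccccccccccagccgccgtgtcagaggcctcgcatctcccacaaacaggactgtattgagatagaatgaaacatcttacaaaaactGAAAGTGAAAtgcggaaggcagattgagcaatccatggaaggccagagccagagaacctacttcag
Chl1: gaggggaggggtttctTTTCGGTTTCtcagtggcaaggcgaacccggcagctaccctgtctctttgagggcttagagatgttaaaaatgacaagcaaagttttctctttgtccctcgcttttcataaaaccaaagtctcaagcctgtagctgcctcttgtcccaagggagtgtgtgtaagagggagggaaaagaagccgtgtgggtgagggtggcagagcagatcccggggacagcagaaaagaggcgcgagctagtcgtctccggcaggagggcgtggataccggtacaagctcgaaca
The motif began 70 bases before the start in Tgtp2, 16 in Tnfsf13b and 234 in Chl1. With both strands searched, this motif lay in 7.91% of 556 promoters of genes at least 2-fold lower, in 2.65% of 566 promoters of genes at least 2-fold higher, in 2.98% of those of all genes compared and in 3.44% of all promoters. Interferon-induced genes had been seen to be lower in these data before this search.

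Lipid handling differed in single genes. Of 21 adipocyte and lipid droplet genes 5 were at least 2-fold lower and none higher. The median was 0.04, with a sign that changes with the scaling and the signal limit. Of the 18 genes above that limit on both arrays 2 were lower. The fatty acid transporter Cd36 had 532, 579 and 196 and was 3.46-fold lower. Lpl, which frees fatty acids from lipoproteins at the endothelial surface, had 2526, 2672 and 944 and was 3.31-fold lower. Both were low on the siRNA-labelled array only. Among 19 genes of fatty acid oxidation 1, Pdk4, which holds back glucose oxidation, was past 2-fold (3.29-fold lower, and below the signal limit under the siRNA label). Of 25 genes of sphingolipid and lysophospholipid signalling 4 were lower and 1 higher (median -0.11), the higher one reaching the signal limit under the siRNA label alone. Enpp2 (autotaxin), which makes lysophosphatidic acid, had 26781, 23368 and 8969 and was 3.05-fold lower, and the receptors Lpar1 and S1pr3 were 2.06-fold and 2.16-fold lower. S1pr1, the main endothelial receptor of sphingosine 1-phosphate, had a log2 difference of 0.97. The lipoprotein genes Apod and Apoe were 13.5-fold and 7.31-fold lower.

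Most genes of the transcription factor lists were within 2-fold, as were most genes compared, of which 11.9% were past it. The number past 2-fold differed between these lists. Of 23 nuclear receptors 2 were higher and 2 lower (median -0.04): Nr4a1, an immediate-early receptor, had 5571, 4950 and 28888 and was 4.99-fold higher and Nr4a2 was 2.60-fold higher. Rorb, a nuclear receptor outside the list and named by its rank, had 417, 364 and 2616 and was 6.14-fold higher. Of 24 Kruppel-like and zinc finger factors 5 were lower and 1 higher (median -0.13), with Zfp521 3.61-fold lower and Klf5 higher by 1.32 on the log2 scale, while Klf2, the flow-induced endothelial factor, differed by -0.10. Sox9 was the 1 of 14 SOX and helix-loop-helix factors past 2-fold (2.23-fold higher). Of 28 homeobox factors 3 were lower and none higher, led by Meox2 at 2.36-fold. None of 21 T-box, forkhead and GATA factors was past 2-fold.

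Among 20 imprinted genes, which are expressed from the copy of 1 parent, 3 were lower and 1 higher (median -0.10). Mest had 2392, 2368 and 290 and was 9.54-fold lower. The cell cycle inhibitor Cdkn1c had 3824, 4227 and 1245 and was 3.97-fold lower. The noncoding Meg3 had 10555, 11506 and 4556 and was 2.96-fold lower. Plagl1, a zinc finger gene, had 3900, 3723 and 12465 and was 2.86-fold higher.

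Transport and metal genes gave a few large differences. Of 25 genes of metal and iron handling 4 were lower and 1 higher (median -0.15): the metalloreductase Steap4 had 6483, 6230 and 715 and was 10.2-fold lower, the iron oxidase Cp was 2.64-fold lower, and the transferrin receptor Tfrc was 2.25-fold higher. Hmox1, which degrades haem, had 3120, 2648 and 14513 and was 4.68-fold higher. Of 16 amino acid transporters 3 were higher and none lower (median -0.03), among them the cystine carrier Slc7a11 at 2.43-fold; all 3 reached the signal limit under the siRNA label alone, and of the 12 above it on both arrays none was past 2-fold. Outside the list, the arginine carrier Slc7a3, named by its rank, had 810, 868 and 6356 and was 6.26-fold higher. Of 15 carbonic anhydrases and acid-base transporters 3 were higher and 1 lower (median 0.25). Car6, a secreted carbonic anhydrase, had 549, 530 and 4385 and was 7.07-fold higher, and the monocarboxylate transporter family member Slc16a6 was 4.93-fold higher. Of 30 lysosomal genes 2 were lower (median -0.07), led by the cathepsin Ctss, also a macrophage product, at 3.80-fold.

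The remaining lists held few genes past 2-fold. Has1, a hyaluronan synthase, was 3.09-fold higher in a list of 25 with 1 gene higher and 2 lower, none of 18 chondroitin sulfate genes and none of 10 junction genes was past 2-fold, and 2 of 17 glycosyltransferases were higher, Galnt3 (2.92-fold) and Gcnt1 (2.79-fold), both of which reached the signal limit under the siRNA label alone. Of 13 tetraspanins 1, Tspan12, which serves Norrin signalling in retinal vessels, was past 2-fold at 3.99-fold higher, and it too reached the limit on that array alone (229, 221 and 1032). S100a8 and S100b were 2.70-fold and 2.28-fold higher among 19 S100 and annexin genes, S100b reaching the signal limit under the siRNA label alone. Of 20 chaperones 1, the inducible Hspa1a, was 2.89-fold lower. It reached the limit under the high-glucose label alone, and none of the 18 chaperones above the limit on both arrays was past 2-fold. Of 18 glucocorticoid targets 1 was higher and 2 lower.

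Of the 1188 genes past 2-fold, 235 were in a list and 953 in none. The largest differences outside the lists included matrix genes. Adamts5 and Adamts15, proteases that cut aggrecan and versican, had 1536, 1410 and 106 and 1215, 1219 and 101, and were 15.6-fold and 14.2-fold lower. Kera, a corneal and connective tissue proteoglycan, had 1178, 1100 and 78.3 and was 16.4-fold lower. Svep1, a large adhesion protein that takes part in lymphatic vessel growth, had 22135, 21951 and 2465 and was 10.4-fold lower. All were low on the siRNA-labelled array only. Vnn1, a pantetheinase, had 6320, 6270 and 598 and was 12.3-fold lower, with its relative Vnn3 5.52-fold lower and possibly sharing signal; Vnn3 was chosen after its values were seen. Spry1, a feedback inhibitor of receptor tyrosine kinases, had 2787, 2731 and 340 and was 9.41-fold lower. The chemokine gene Cxcl12 was 6.82-fold lower.

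Several of the largest differences on the other side were in genes of surface proteins. Prom1 (CD133) had 72.4, 73.0 and 818 and was 9.58-fold higher. Itgb7, an integrin chain known from lymphocytes, had 2693, 2752 and 28532 and was 8.86-fold higher. Cd24a, a small mucin-like protein of epithelial and precursor cells, had 2555, 2041 and 18716 and was 7.84-fold higher. These were high on the siRNA-labelled array only. The cannabinoid receptor gene Cnr1 had 185, 193 and 1913 and was 8.45-fold higher. Genes of cornified skin, Lce1g and Sprr2h, were 7.02-fold and 6.07-fold higher. Of 5 measured epithelial markers 2 were at least 2-fold higher (Krt18 at 87.0, 102 and 449 and Krt19 at 209, 186 and 638). Krt5, Krt14 and Trp63 were within 2-fold (log2 0.39, 0.52 and -0.49), Trp63 being the brightest marker at 3548, 3377 and 2822. Epcam and Cdh1 were not well above background on any array. The part of such cells in these genes was not tested. Of genes that act in DNA replication and division, Aunip was 8.92-fold, Traip 6.33-fold, Recql4 6.12-fold, Mcm10 5.86-fold and Kntc1 5.50-fold higher. Chchd10, a mitochondrial protein gene, had 16117, 15029 and 91171 and was 5.18-fold higher, and the stromelysin gene Mmp10 was 4.61-fold higher.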

How the data were processed

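Probe brightness was measured by intensity on 1-colour Agilent arrays of total RNA labelled with Cy3, with 1 array of pooled RNA for each of 3 groups. Per the file headers, Feature Extraction 11.0.1.1 gave a background-subtracted processed signal, an intensity on a linear scale, and the deposited series value table holds the same intensity. From these, outlier spots (109, 147 and 107) were left out, log2 signals of a probe's spots were averaged, and each array's 75th percentile was subtracted. The scanner's mark for signal well above background had to hold for at least 50% of a probe's spots. Accessions matched to RefSeq genes of GRCm38.p6 named 66.1% of probes; the files were annotated on mm9. A gene is its brightest probe by the mean log2 signal of the 2 arrays.

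The genes and the 59 lists were chosen with earlier results of these data known. Genes were named by rule: the 30 largest differences each way outside genes named in earlier work, up to 5 members of a list past 2-fold (or the largest difference where none was), the 10 largest each way above a signal of 10000, and Ninj1 and Ninj2. Others are marked as chosen after their values were seen; Ninj2 was not bright enough to be compared. The steps were tested on simulated data. Python 3.11.15 with pandas 2.3.3, R 4.3.3 and limma 3.58.1 were used. The alternatives tried were quantile normalization, cyclic loess, median scaling, normexp with an offset of 50 (on median spot signals), other signal limits, the mean over probes, the value table, other thresholds and other assignments of the arrays. The number of arrays limits the precision. Some genes and 1 list are not reported here.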

Additional observations from a re-analysis of the deposited data

How the results depend on the processing

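Against 587 higher and 601 lower genes, a threshold of 1.5-fold gave 1372 and 1249 and a threshold of 3-fold gave 233 and 225. Taking the groups by slide position left 1 higher and 3 lower genes of 9554 compared, since the array that stands apart then carries the normal-glucose word. With the 2 high-glucose arrays exchanged the counts were 601 and 587. Under quantile normalization, cyclic loess, median scaling, normexp, other signal limits, the mean over probes and the value table, the counts stayed within 1.5 times (higher 468 to 727, lower 472 to 775), and the median over all genes moved by at most 0.05. Of 253 named genes past 2-fold, 231 stayed past it under all these alternatives that could be run for them, 22 did not under at least 1, and none of them changed sign. List medians that changed sign were those of the amino acid transporters (normexp) and of hyaluronan and heparan sulfate (scaling). Those of adipocyte genes, cyclic AMP and coagulation changed with the scaling and also with the signal limit. Those of calcium stores (signal limit) and the TNF superfamily (signal limit or probe rule) changed too. No paired analysis was possible because each group has 1 array, and no replicate could be left out. Dim genes are limited by the signal minimum of 500, and which array received the siRNA is not settled by these files.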

Other observations

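Genes that lie next to each other on a chromosome differed together in places. Runs were counted where at least 3 adjacent compared genes were all at least 2-fold on the same side. There were 4 runs with 13 higher genes and 14 runs with 47 lower genes, beside 5.87% higher and 6.01% lower among all genes. How many runs gene order alone would give was not tested. The higher runs were the cystatin genes Cstdc4, Csta3, Csta2 and Cstdc5, the growth factor genes Epgn, Ereg and Areg, the glutathione transferase genes Gsto1 and Gsto2 with Itprip, and Tpd52 with Zbtb10 and Zfp704. The lower runs included C1rl, C1ra, C1s1, C1rb and C1s2, which encode complement proteases, the guanylate-binding genes Gbp5, Gbp7, Gbp3 and Gbp2, the serpin genes Serpinb1a, Serpinb6b and Serpinb9, and Parp14, Dtx3l and Parp9. Near copies within a run are not separate observations.

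By family name, 8 of 19 kinesin genes (Kif) were at least 2-fold higher and none lower, and 4 of 16 Nup genes were higher and none lower. Of 17 Cyp genes none was higher and 4 were lower. The 203 Zfp genes held 3 higher and 3 lower (2.96% past 2-fold, against 11.9% of all genes), and the 163 Slc genes 12 higher and 11 lower (14.1%). Of 42 long noncoding genes compared 4 were higher and 2 lower.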
